A study of Mus musculus with 18 samples.

Results

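The genes of the NF-κB switch and of its feedback inhibitors were followed in brown adipocytes grown from wt1-SAM cells. These are immortalised brown preadipocytes of the mouse, and in every group they also carry SAM, a CRISPR activation machinery. The 10 genes were taken from the 54347 genes of the count table by their symbols: the subunits Nfkb1, Nfkb2, Rela and Relb, the inhibitors Nfkbia, Nfkbib and Nfkbie, the inhibitory ubiquitin regulators Tnfaip3 and Tnip1, and the atypical IκB protein Bcl3. Polyadenylated RNA was sequenced in 18 libraries, 3 in each of 6 groups. On day 4 of differentiation all cells were transfected with an LNA, a short antisense oligonucleotide with locked bases: the non-targeting ctrlA, or LNA1 or LNA2, both directed at the lncRNA Gm15551. They were harvested on day 7, either unstimulated or after 24 h with 1 µM isoproterenol, a β-adrenergic agonist, and the groups are named here by LNA and stimulation. All groups come from 1 cell line and every group received an LNA. On GRCm38 the subunit genes lie at chr3:135584655-135691547 (Nfkb1, minus strand), chr19:46304320-46312385 (Nfkb2, plus), chr19:5637483-5648130 (Rela, plus) and chr7:19606217-19629438 (Relb, minus). The inhibitor genes lie at chr12:55489410-55492647 (Nfkbia, minus), chr7:28758251-28767512 (Nfkbib, minus), chr17:45555703-45563169 (Nfkbie, plus), chr10:19000910-19015657 (Tnfaip3, minus), chr11:54910785-54962917 (Tnip1, minus) and chr7:19808462-19822770 (Bcl3, minus).

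NF-κB factors are dimers of Rel proteins that wait in the cytoplasm, held there by IκB proteins. Signals from cytokine and pattern recognition receptors lead, through adaptors and ubiquitin chains, to an IκB kinase that marks IκB for destruction, and the freed dimers enter the nucleus. Among the genes they switch on are their own inhibitors, so the pathway carries its own brake: Nfkbia encodes IκBα, a classical feedback inhibitor, and Tnfaip3 encodes a ubiquitin-editing enzyme that works with the adaptor encoded by Tnip1 to quench the upstream signal. Relb and Nfkb2 belong to the slower non-canonical branch. In fat, the pathway is best known for the inflammatory gene program of adipocytes.

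The LNAs are printed here because they define the groups (bases 5′ to 3′, none in capitals).
ctrlA: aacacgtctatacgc
LNA1: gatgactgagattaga
LNA2: aagtagcacggcgttg
Of 55450 genes whose GENCODE transcripts were searched, LNA1 and LNA2 were each complementary over all 16 bases to Gm15551 and to no other gene. The longest complementary run to a transcript of the 10 NF-κB genes was 9 bases, between LNA1 and Bcl3, and 6.61% of all genes had a run at least that long. Only uninterrupted matches to transcript sequences were searched, not introns or sites with mismatches.

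The promoters of Nfkbia, Nfkbie and Tnip1 are shown because these inhibitor genes went in different directions with isoproterenol in the fit with a replicate block and all carry a match to the NF-κB consensus site (κB). Each line holds the 250 bases upstream of the RefSeq transcription start on GRCm38.p6, and capitals mark the κB matches, on either strand, with overlapping matches merged. Nfkbia lies at chr12:55492648-55492897 on the minus strand, Nfkbie at chr17:45555450-45555699 on the plus strand and Tnip1 at chr11:54962941-54963190 on the minus strand.
Nfkbia: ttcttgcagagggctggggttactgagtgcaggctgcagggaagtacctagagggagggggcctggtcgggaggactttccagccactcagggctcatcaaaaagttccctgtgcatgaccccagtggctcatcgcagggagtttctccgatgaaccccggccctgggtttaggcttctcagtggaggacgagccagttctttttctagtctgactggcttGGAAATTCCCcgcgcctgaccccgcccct
Nfkbie: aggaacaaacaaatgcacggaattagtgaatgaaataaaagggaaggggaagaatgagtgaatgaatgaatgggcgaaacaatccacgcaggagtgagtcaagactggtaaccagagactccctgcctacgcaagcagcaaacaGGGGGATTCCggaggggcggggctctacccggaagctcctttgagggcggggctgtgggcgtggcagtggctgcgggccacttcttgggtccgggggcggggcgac
Tnip1: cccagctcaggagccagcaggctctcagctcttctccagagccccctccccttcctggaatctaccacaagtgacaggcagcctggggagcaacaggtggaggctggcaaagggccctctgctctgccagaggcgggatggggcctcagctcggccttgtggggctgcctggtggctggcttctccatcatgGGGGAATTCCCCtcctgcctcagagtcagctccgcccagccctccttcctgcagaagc
RefSeq promoter windows of 300 bases (250 before to 50 after the start) were at hand for 8 of the 10 genes, in 11 windows. A κB match was present in at least 1 window of 6 of these 8 genes, the others being Rela and Nfkbib, and in 8.46% of all 32851 windows. In Nfkb2 the window held the palindromic match GGGAATTCCC at position -39, the same letters as at position -57 of Tnip1, and Tnfaip3 held GGGACACCCC at position -125, all counted from the RefSeq start. The full cAMP response element TGACGTCA was found on neither strand in the 8 genes, against 1.79% of all windows, and its core TGACG was found in 3 of the 8, against 20.81% of all windows. In these comparisons a gene was counted once over all its windows, whereas the shares of all windows are per single window, so the units differ. These matches describe the letters in the windows and are no measure of binding.

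Library totals ranged from 9167560 to 19723021 counts, with 21550 to 23949 genes detected per library. The 6 libraries of replicate number 2 stood apart in every group. They had 7.86 to 9.79% of their counts on mitochondrial genes, against 2.56 to 4.97% in the other 12, and 2.88 to 14.3% on the ribosomal RNA gene CT010467.1, against 0.285 to 1.04%. Gm15551, the target of the LNAs, had 7 to 14 counts in unstimulated ctrlA libraries, 3 to 12 with LNA1 and 1 to 13 with LNA2, and it did not pass the filter on low counts. Fitted with edgeR on all genes without that filter, its log2 fold change was -0.70 ± 0.59 (SE) with LNA1 (adjusted p = 1.00) and -0.44 ± 0.57 with LNA2 (adjusted p = 1.00), so its knockdown was not detectable at this depth. The authors themselves report that both LNAs robustly lowered Gm15551 by day 7, relative to the control LNA. The brown adipocyte list also holds general adipocyte markers, and of these Fabp4, Adipoq, Pparg and Plin1 were abundant in every library. Of the markers more selective for brown adipocytes, Cidea and Prdm16 had means of 12.5 and 6.32 CPM over all libraries. Ucp1 rose from 1.13 ± 0.35 to 12.9 ± 2.3 CPM (± SD over 9 libraries each) with isoproterenol (log2 fold change 3.51, edgeR adjusted p = 1.124e-08). Over the brown adipocyte list 3 of 9 tested markers were called higher and 1 lower, Adipoq (-0.71), against 3.2% of all genes called, with a median log2 fold change of -0.001. The summed level of the list was 16950 CPM unstimulated and 12530 CPM stimulated with ctrlA, 14570 and 11330 CPM with LNA1, and 14740 and 10770 CPM with LNA2 (means of 3). With each LNA the sums of stimulated and unstimulated libraries overlapped. Most of the sum was Fabp4, with a mean of 11810 CPM over all libraries, next to 635 for Plin1 and 498 for Adipoq. Dio2 had at most 4 counts in any library, and Lep, which the authors count as a white adipose marker, at most 2.

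Of the 10 NF-κB genes, 9 passed the filter. Levels are given as CPM, counts scaled to the library total and the TMM factor, and levels of different genes are compared per kilobase of the longest coding transcript. On that scale Nfkbia was the highest (58.3 ± 19.1 CPM per kb, SD over 18 libraries), followed by Rela (28.8 ± 8.6), Nfkb2 (16.0 ± 5.7), Nfkb1 (11.3 ± 2.4), Tnip1 (9.59 ± 2.66), Nfkbib (7.28 ± 1.04), Tnfaip3 (6.45 ± 0.95), Relb (5.21 ± 1.55) and Nfkbie (0.468 ± 0.160). Nfkbia was above Rela within each library, although their ranges over libraries met (38.2 to 97.6 and 14.5 to 39.5 CPM per kb). The ranges of the other neighbours in this order overlapped too, except that the lowest library of Relb (2.80 CPM per kb) was above the highest of Nfkbie (0.872). The order is over all libraries and varied with the replicate number: Nfkbia and Rela were at 82.4 and 17.5 CPM per kb in replicate 2 and at 46.3 and 34.4 in replicates 3 and 4, and Nfkbib (6.98) was above Tnip1 (6.55) in replicate 2. Bcl3, which encodes a nuclear IκB protein that acts on Nfkb1 and Nfkb2 homodimers, had 0 to 9 counts and was at or under 3 counts in 15 of 18 libraries. Its 9 counts (0.919 CPM) were in 1 library, ctrlA with isoproterenol, replicate 4, and the other replicates of that group had 2 and 3 counts. At 3 counts, the floor used here, a library holds 0.17 to 0.306 CPM, so a change of Bcl3 could not be measured and no fold is given.

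**Figure D1:**
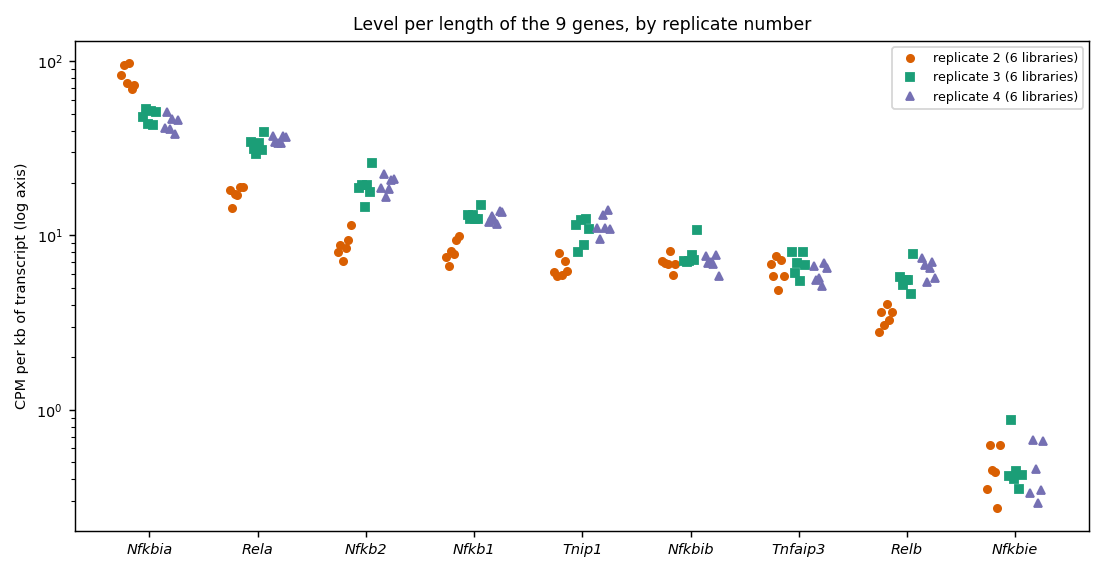
Level of the 9 measured NF-κB genes in CPM per kilobase of transcript (log axis), with 1 point per library, coloured by replicate number (6 libraries each) and ordered by mean level. The replicate 2 libraries lie above all others for Nfkbia and below all others for Rela, Nfkb2, Nfkb1, Tnip1 and Relb, while Nfkbib, Tnfaip3 and Nfkbie overlap.

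Replicate numbers separated most of these genes. The 4 subunit genes and Tnip1 were lower in all 6 replicate 2 libraries than in any of the other 12. Nfkb2 had 34.2 ± 5.8 CPM in replicate 2 and 75.2 ± 11.2 in replicates 3 and 4 (SD, n = 6 and 12), a ratio of 2.20. For Rela the values were 47.5 ± 4.6 and 93.4 ± 7.9 CPM, a ratio of 1.97. Nfkbia went the other way, with 109 to 154 CPM in replicate 2 and 60.2 to 84.3 CPM elsewhere, a ratio of 1.78. Nfkbib, Nfkbie and Tnfaip3 overlapped between the numbers, with ratios of replicate 2 to the others of 0.940, 0.973 and 0.982. Groups of libraries not overlapping were thus seen for 6 of the 9 genes, and for 38.8% of the 13170 tested genes with a mean of at least 1 CPM. The mitochondrial and ribosomal RNA shares moved with the replicate number as well, and their part in these levels was not tested. Because libraries of the same number deviated together across all genes, differences below are also given within numbers, as pairs and from a fit with the replicate number as a block.

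**Figure D2:**
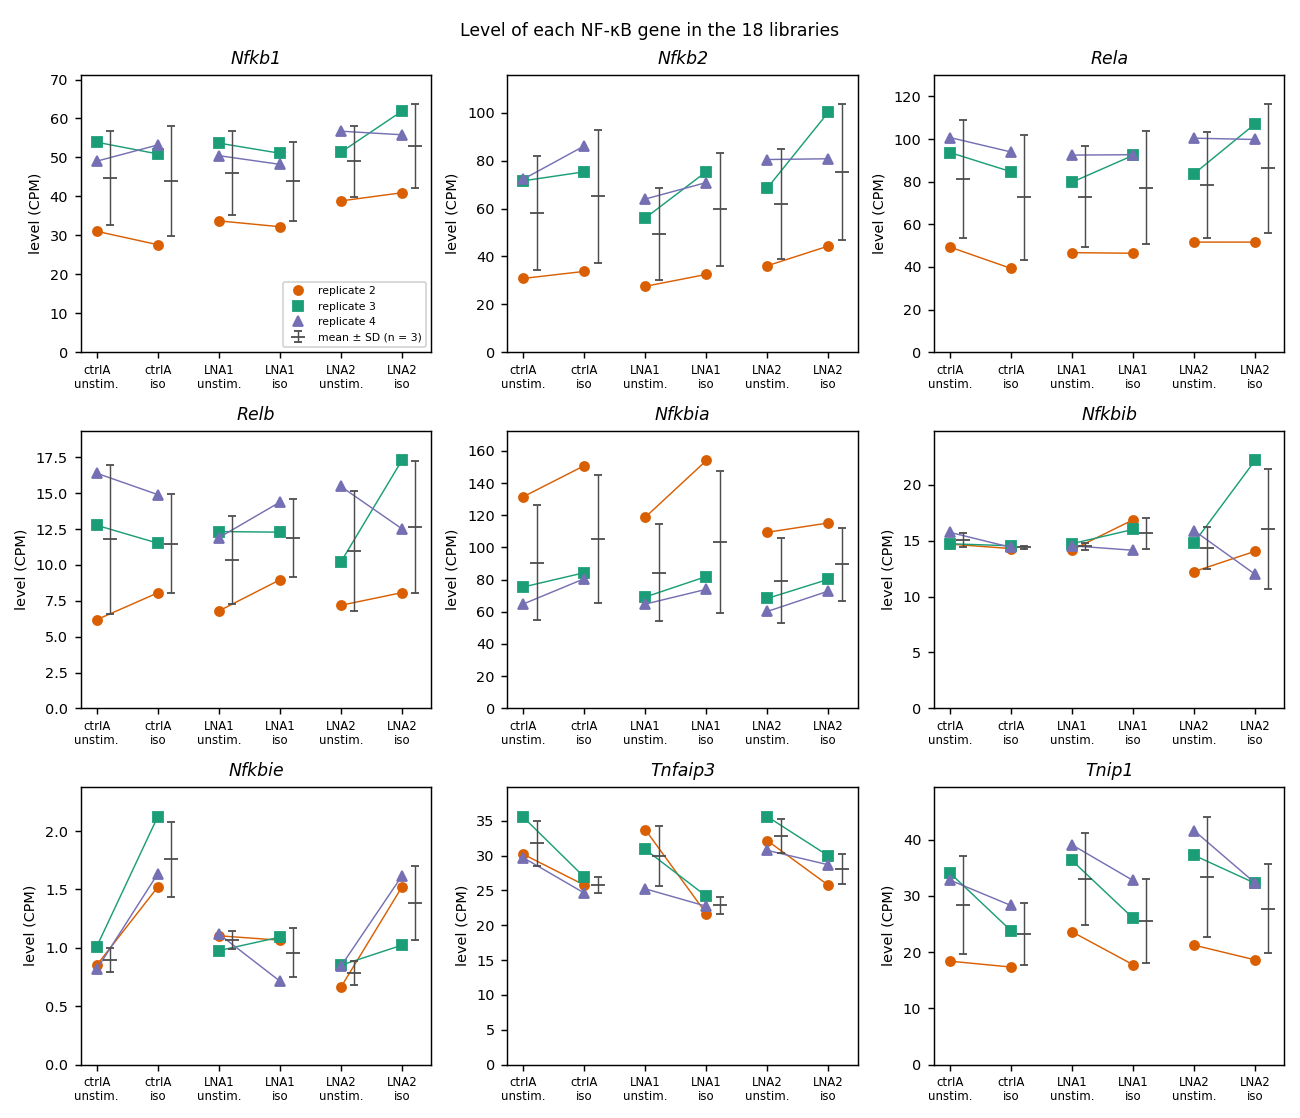
Level in CPM (axes start at 0) of the 9 measured genes in each of the 18 libraries, by LNA and stimulation (unstim., unstimulated; iso, isoproterenol), with lines joining unstimulated and stimulated libraries of the same LNA and replicate number, and dashes with bars for the mean ± SD of 3 libraries. Lines for Nfkbia and Nfkb2 all slope up and those for Tnfaip3 and Tnip1 all slope down.

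The question whether β-adrenergic stimulation alters the NF-κB genes was addressed by comparing 9 stimulated with 9 unstimulated libraries, averaged over the 3 LNAs. The inhibitor genes differed in direction: Nfkbia was higher with isoproterenol in 9 of 9 pairs of the same LNA and number, whereas Tnfaip3 and Tnip1 were lower in 9 of 9. Of the subunits, Nfkb2 was higher in 9 of 9 pairs, while Nfkb1, Rela and Relb went either way. All 9 pairs thus went 1 way for 4 of 9 genes, against 15.3% of the 14949 genes tested (8.4% higher and 6.91% lower). No gene was called at an adjusted p below 0.05 and an absolute log2 fold change above 0.5 in edgeR's quasi-likelihood test (0 of 9, against 3.2% of all genes, with 2 of the 9 at an unadjusted p below 0.05 against 2242 of 14949 genes, and 0 of 9 called in DESeq2 against 629 of 14941 genes). On the adjusted p alone 1 gene of 9 passed, Tnfaip3, against 4.58% of all genes. With the replicate block 5 of 9 passed, against 26.4% of all genes, and 1 of them, Nfkbie, was also past the fold limit, against 7% of all genes. These are bulk samples, in which fewer cells of a type and less RNA per cell cannot be told apart.

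Nfkbia encodes IκBα, which holds Rela dimers in the cytoplasm. In unstimulated cells the replicates 2, 3 and 4 had 132, 75.4 and 64.9 CPM with ctrlA, 119, 69.2 and 64.8 CPM with LNA1, and 109, 68.3 and 60.2 CPM with LNA2. With isoproterenol the values were 151, 84.3 and 80.6 CPM with ctrlA, 154, 81.9 and 74.0 CPM with LNA1, and 115, 80.2 and 72.9 CPM with LNA2. In replicates 3 and 4 all stimulated libraries were above all unstimulated libraries of the same number, in replicate 2 they overlapped, and over all libraries the groups overlapped. The log2 fold change was 0.23 ± 0.22 (SE) without the block (edgeR adjusted p = 0.775) and 0.23 ± 0.04 with it (adjusted p = 0.00082), an increase of 1.17-fold with a 95% interval of 1.10 to 1.25. Without the block, leaving out single libraries gave 0.099 to 0.355. The blocked increase held in all 3 fits that each left out 1 replicate number (adjusted p 0.00561 to 0.0274).

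Tnfaip3 encodes the ubiquitin-editing brake on receptor signalling, and it moved the opposite way. Unstimulated cells had 30.2, 35.5 and 29.7 CPM with ctrlA, 33.7, 30.9 and 25.2 CPM with LNA1, and 32.1, 35.6 and 30.7 CPM with LNA2 (replicates 2, 3 and 4). Stimulated cells had 25.8, 26.9 and 24.6 CPM with ctrlA, 21.7, 24.2 and 22.7 CPM with LNA1, and 25.7, 29.95 and 28.7 CPM with LNA2. With ctrlA and with LNA1 the 3 stimulated libraries were all below the 3 unstimulated ones, and with LNA2 they were too, at 29.95 against 30.7 CPM for the closest. Tnfaip3 fell by 0.31 on the log2 scale without the block (SE 0.08, edgeR adjusted p = 0.0302), which is under the fold limit, and by 0.30 with it (adjusted p = 0.000298), to 0.810 of the unstimulated level (95% interval 0.752 to 0.873). Without the block the adjusted p was between 0.0157 and 0.0811 when single libraries were left out and below 0.05 in 7 of 18 such fits. With the block it stayed below 0.05 in all 3 fits that left out 1 replicate number.

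Tnip1 encodes the ubiquitin-binding partner of the Tnfaip3 protein. Its unstimulated values were 18.4, 34.1 and 32.8 CPM with ctrlA, 23.6, 36.3 and 39.1 CPM with LNA1, and 21.2, 37.2 and 41.6 CPM with LNA2. Its stimulated values were 17.3, 23.8 and 28.3 CPM with ctrlA, 17.8, 26.0 and 32.7 CPM with LNA1, and 18.6, 32.2 and 32.3 CPM with LNA2. Within replicates 3 and 4 the stimulated libraries were all below the unstimulated ones, within replicate 2 they overlapped, and the spread between numbers was larger than the difference. The log2 fold change was -0.31 ± 0.19 without the block (edgeR adjusted p = 0.541) and -0.31 ± 0.05 with it (adjusted p = 0.000235), to 0.809 of the unstimulated level (95% interval 0.751 to 0.870). The blocked decrease was past the adjusted p limit in all 3 fits that left out 1 number, and so was that without the block when all 6 replicate 2 libraries were left out (-0.35, adjusted p = 0.0145).

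Nfkb2 encodes the precursor whose processing starts the non-canonical branch. Unstimulated cells had 30.8, 71.6 and 72.3 CPM with ctrlA, 27.5, 56.1 and 64.0 CPM with LNA1, and 36.1, 68.6 and 80.5 CPM with LNA2. Stimulated cells had 33.7, 75.3 and 86.2 CPM with ctrlA, 32.5, 75.4 and 70.9 CPM with LNA1, and 44.3, 100.3 and 80.8 CPM with LNA2. The stimulated library was the higher of each pair, by as little as 0.006 on the log2 scale, and the groups overlapped within replicates 2 and 4 but not within replicate 3. The log2 fold change was 0.24 ± 0.27 without the block (edgeR adjusted p = 0.832) and 0.24 ± 0.06 with it (adjusted p = 0.00403). Leaving out single libraries without the block gave 0.134 to 0.339. The blocked increase passed in 1 of 3 fits that left out a replicate number, that without number 4, and its adjusted p was 0.0511 and 0.0705 in the others. Exons of Nfkb2 overlap AC114539.1 and Psd on the opposite strand, and whether the counting used strand was not stated.

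Nfkbie encodes IκBε, a delayed feedback inhibitor, and was the least expressed gene that could be tested, with 8 to 33 counts per library. Unstimulated cells had 0.851, 1.01 and 0.816 CPM with ctrlA, 1.10, 0.976 and 1.119 CPM with LNA1, and 0.661, 0.850 and 0.840 CPM with LNA2. Stimulated cells had 1.52, 2.12 and 1.63 CPM with ctrlA, 1.07, 1.09 and 0.715 CPM with LNA1, and 1.52, 1.02 and 1.61 CPM with LNA2. With ctrlA and with LNA2 every stimulated library was above every unstimulated one, and with LNA1 they overlapped, so that 7 of 9 pairs were higher. The average log2 fold change was 0.54 ± 0.16 (edgeR adjusted p = 0.0666), and with the block it was 0.54 ± 0.17 (adjusted p = 0.0301) and called, while DESeq2 with the block gave an adjusted p of 0.0928. That call was lost in each of the 3 fits that left out a replicate number (adjusted p 0.112 to 0.225), and without the block a call appeared when the LNA2 library with isoproterenol, replicate 3, was left out (0.60, adjusted p = 0.0354). The difference of the isoproterenol effect between LNA1 and ctrlA was -1.13 ± 0.38 on the log2 scale, with an unadjusted p of 0.00995 in edgeR and an adjusted p of 1.00.

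The remaining genes were not moved past the limits by isoproterenol in either edgeR fit. Rela, the main activating subunit, had a median of 83.7 CPM in the unstimulated (46.7 to 100.7) and 92.3 CPM in the stimulated libraries (39.3 to 107.1), and the log2 fold change was 0.02 without the block (95% interval -0.49 to 0.52) and 0.002 with it (-0.10 to 0.10). Nfkb1, which encodes the precursor of its usual partner, ranged from 31.0 to 56.7 CPM unstimulated and from 27.6 to 61.9 CPM stimulated, with a log2 fold change of 0.01 and an interval of -0.35 to 0.36. Relb, the non-canonical activating subunit, ranged from 6.18 to 16.4 CPM and from 8.06 to 17.3 CPM (log2 fold change 0.125, interval -0.36 to 0.61), and Nfkbib, which encodes IκBβ, from 12.2 to 15.9 CPM and from 12.0 to 22.2 CPM (0.07, interval -0.16 to 0.30). For Relb, leaving out single libraries without the block gave 0.016 to 0.237. The highest Nfkbib value came from 1 library, LNA2 with isoproterenol, replicate 3, and Nfkbib exons overlap Ccer2 and Sirt2 on the opposite strand.

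**Figure D3:**
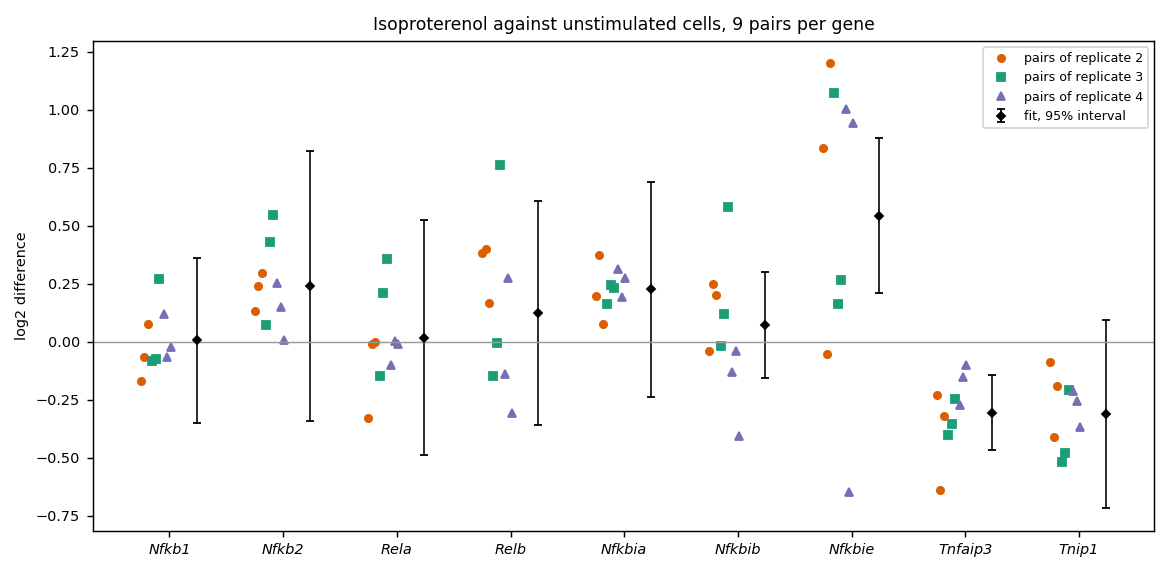
Difference of log2 CPM between stimulated and unstimulated libraries of the same LNA and replicate number for 9 genes (3 LNAs by 3 numbers, coloured by number), with the edgeR log2 fold change without the block and its 95% interval (black). All 9 points are above 0 for Nfkbia and Nfkb2 and below 0 for Tnfaip3 and Tnip1.

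Whether the LNAs against Gm15551 alter the NF-κB genes was addressed by setting the 6 libraries of each LNA against the 6 of ctrlA, both states of stimulation pooled. Both comparisons use the same ctrlA libraries, so their values are given side by side. With LNA1, 0 of 9 genes were called in edgeR (0.442% of all genes), 0 had an adjusted p below 0.05 (0.475% of all genes), 0 had an unadjusted p below 0.05 (899 of 14949 genes), and DESeq2 called 0 (133 of 14941 genes). With LNA2, 0 of 9 were called in edgeR (1.42%), 0 had an adjusted p below 0.05 (1.59%), 0 had an unadjusted p below 0.05 (1587 of 14949 genes), and DESeq2 called 0 (338 of 14941 genes). With the block, the adjusted p was below 0.05 for 0 of 9 genes with LNA1 (7.8% of all genes) and for 3 of 9 with LNA2 (20.6% of all genes): Tnip1, Nfkb1 and Nfkbia. In the blocked edgeR fit 0 of 9 also reached the fold limit with LNA1 (2.43% of all genes) and 0 of 9 with LNA2 (5.53%). In the same fit all 3 tested leukocyte markers of 10 listed were called higher with LNA2, against 0 of 3 without the block: Cd14 (log2 fold change 0.57), Cd68 (0.88) and Csf1r, which had 1 to 33 counts and was at or under 3 counts in 7 of 18 libraries. The summed level of that list in unstimulated cells was 10.8 to 14.4 CPM with ctrlA and 16.5 to 31.3 CPM with LNA2, and in stimulated cells 15.3 to 29.7 and 32.6 to 49.6 CPM. Most of the sum was Cd68, with a mean of 19.5 CPM over all libraries, next to 3.20 for Cd14. The part of these markers in the LNA2 values was not tested.

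Tnip1 was higher in 6 of 6 pairs with LNA1 and in 6 of 6 with LNA2. Its mean was 25.8 ± 7.1 CPM with ctrlA, 29.2 ± 8.2 with LNA1 and 30.5 ± 9.0 with LNA2 (SD, n = 6 each), and the groups overlapped. In the blocked edgeR fit the log2 fold change was 0.18 ± 0.06 with LNA1 (adjusted p = 0.0896) and 0.24 ± 0.06 with LNA2 (adjusted p = 0.0111).

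Nfkbia was lower in 6 of 6 pairs with LNA2 and in 5 of 6 with LNA1. Its mean was 97.9 ± 34.7 CPM with ctrlA, 93.8 ± 35.3 with LNA1 and 84.4 ± 22.7 with LNA2. The blocked log2 fold change was -0.07 ± 0.05 with LNA1 (edgeR adjusted p = 0.499) and -0.19 ± 0.05 with LNA2 (adjusted p = 0.0195). The LNA2 difference averaged -0.33 on the log2 scale over the pairs of replicate 2, -0.11 over those of replicate 3 and -0.13 over those of replicate 4, and without number 2 the blocked adjusted p no longer passed.

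Nfkb1 was higher in 5 of 6 pairs with LNA2, with 44.3 ± 11.8 CPM in ctrlA cells and 50.9 ± 9.2 in LNA2 cells. Its blocked log2 fold change was 0.22 ± 0.06 with LNA2 (edgeR adjusted p = 0.0181) and 0.03 ± 0.06 with LNA1 (adjusted p = 0.801). It, too, leaned on replicate 2, where the pairs averaged 0.45 against 0.11 and 0.14 in replicates 3 and 4. Both Nfkb1 and Nfkbia passed in 1 of 3 fits that left out a replicate number, and Tnip1 in 2 of 3. Without number 4 0 of the 3 passed (edgeR adjusted p 0.08355 for Nfkb1, 0.09745 for Nfkbia and 0.1368 for Tnip1). All 6 pairs went 1 way for 2 of 9 genes with LNA2, 1 higher and 1 lower, against 22% of all genes (9.91% higher and 12.1% lower). With LNA1 they did so for 1 of 9 genes, higher, against 20% of all genes (7.91% higher).

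The other 6 genes did not pass with either LNA. Nfkbie had 1.33 ± 0.52 CPM with ctrlA, 1.01 ± 0.15 with LNA1 and 1.08 ± 0.39 with LNA2, the lowest log2 fold changes of the set (-0.31 and -0.27), with 95% intervals of -0.72 to 0.10 and -0.67 to 0.14. Rela had 76.9 ± 26.0, 75.0 ± 22.6 and 82.4 ± 25.0 CPM, and Relb had 11.6 ± 3.9, 11.1 ± 2.7 and 11.8 ± 4.0 CPM. Within pairs against ctrlA, Rela was higher in 2 of 6 with LNA1 and in 4 of 6 with LNA2, and Relb in 3 of 6 with each. The Nfkbie pairs of LNA1 against ctrlA were 0.375, -0.05 and 0.456 on the log2 scale unstimulated (replicates 2, 3 and 4). With isoproterenol they were -0.513, -0.96 and -1.192, so the pooled Nfkbie value averages states that differ. Without replicate number 3 the unblocked LNA2 value of Nfkbie was -0.077, and Nfkbia was lower (-0.256).

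Set against each other, the targeting LNAs differed in the subunit Nfkb2 and in Tnfaip3 in the blocked fit. Nfkb2 was higher with LNA2 than with LNA1 in 6 of 6 pairs, at 68.4 ± 24.3 and 54.4 ± 20.1 CPM, with ctrlA between them at 61.7 ± 23.4 CPM. The blocked log2 fold change was 0.34 ± 0.07 (edgeR adjusted p = 0.003). Tnfaip3 was higher in 5 of 6 pairs, at 30.5 ± 3.3 and 26.4 ± 4.8 CPM, with a blocked log2 fold change of 0.22 ± 0.06 (adjusted p = 0.0292). The block thus passed 2 of 9 genes, against 15.4% of all genes, with 0 of 9 past the fold limit (4.11%). Without it edgeR called 0 of 9 (0.923% of all genes), 0 had an adjusted p below 0.05 (0.97%) and 1, Tnfaip3, had an unadjusted p below 0.05, against 1375 of 14949 genes. Nfkb2 passed in 2 of 3 fits that left out a replicate number and Tnfaip3 in 1. DESeq2 without the block called 0 of 9, against 232 of 14941 genes. All 6 pairs went 1 way for 3 of 9 genes, Nfkb2 and Rela higher and Nfkbia lower, against 22.3% of all genes (11.4% higher and 10.9% lower). In the blocked fit, 2 of 3 tested leukocyte, 2 of 4 preadipocyte and 3 of 9 brown adipocyte markers also passed the adjusted p. Of these markers 1 leukocyte and 1 preadipocyte marker were called, both higher with LNA2. The part of these markers in the values was not tested.

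**Figure D4:**
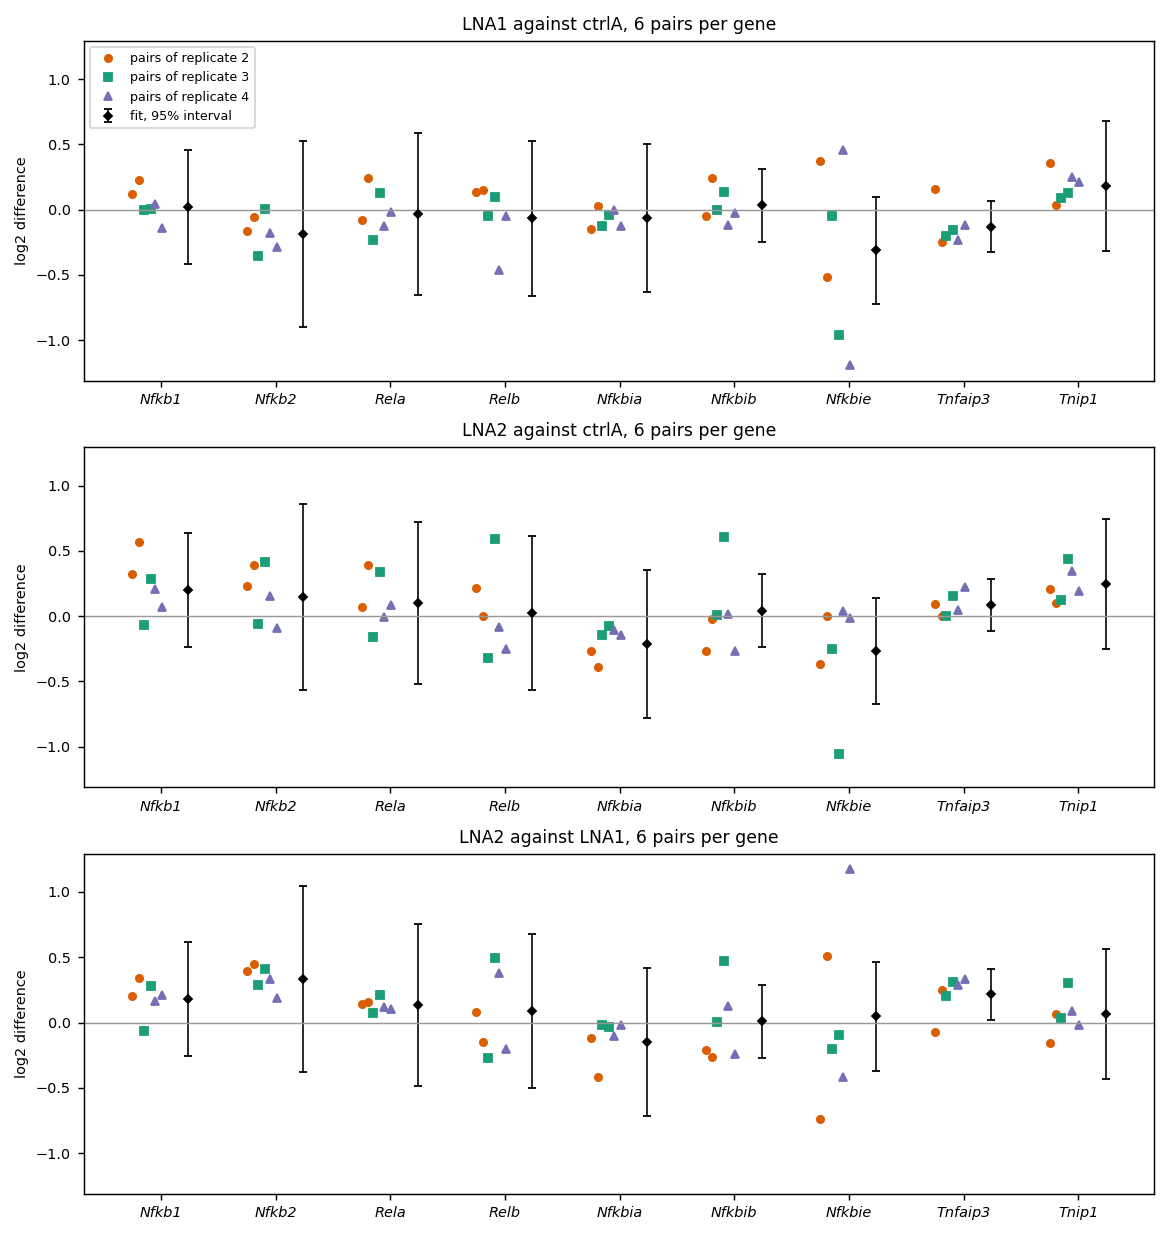
Difference of log2 CPM within pairs of the same stimulation and replicate number for LNA1 against ctrlA, LNA2 against ctrlA and LNA2 against LNA1 (6 pairs per gene, coloured by number), with the edgeR log2 fold change without the block and its 95% interval (black). All 6 points lie above 0 for Tnip1 with each LNA against ctrlA and for Nfkb2 with LNA2 against LNA1.

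The interaction tests asked whether the response to isoproterenol differed between a targeting LNA and ctrlA. In edgeR 0 of 9 genes passed an adjusted p of 0.05 with LNA1, with 1 at an unadjusted p below 0.05, and 0 of 9 with LNA2, with 0 at an unadjusted p below 0.05. Over all 14949 genes 0 passed in either test, with 105 and 116 at an unadjusted p below 0.05. DESeq2 called 0 of the 9 in both, against 0 and 2 of 14941 genes. Testing all 6 groups at once, with 0.001 as the adjusted p limit, called 0 of 9 genes in edgeR (0.455% of all genes), with 2 at an unadjusted p below 0.05 against 1683 of 14949 genes, and 0 called in DESeq2 against 556 of 14941. With the block edgeR also called 0 of 9 (8.93% of all genes).

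Over the 18 libraries, after the mean of each replicate number was removed from log2 CPM, Nfkbia had a Pearson r of -0.78 with Tnip1, -0.69 with Tnfaip3 and 0.51 with Nfkbie, and Tnfaip3 and Tnip1 had an r of 0.70 with each other. Among the subunits r was 0.75 between Nfkb1 and Rela, 0.62 between Rela and Nfkb2 and 0.59 between Nfkb1 and Nfkb2, while Relb had an r of 0.55 with Nfkb2, 0.36 with Rela and 0.26 with Nfkb1. The highest r of Relb was with the inhibitor gene Nfkbib (0.73). These values describe libraries that share the same treatments and scaling. The 3 genes whose pattern was most like that of Nfkbia were Cyb5a, Il10rb and Rpl35a (r 0.94, 0.92 and 0.92), those most like Tnip1 were Sparc, Adora1 and Vsir (0.92, 0.92 and 0.91), and those most like Tnfaip3 were Ptprm, Mknk1 and Gpr155 (0.91, 0.90 and 0.90). For Nfkb2 they were Nploc4, Kat2a and Plcd3 (0.96, 0.93 and 0.92), and for Rela Tonsl, Uhrf1bp1 and Madd (0.90, 0.88 and 0.87). For Nfkb1 they were Ripor1, Ulk1 and D630045J12Rik (0.90, 0.88 and 0.87), for Relb Pusl1, Ints11 and U2af2 (0.86, 0.81 and 0.79), for Nfkbib Ccnq, Fth1 and Zfp64 (0.83, 0.82 and 0.80), and for Nfkbie Ctla2b, Gm42546 and Bzw2 (0.85, 0.83 and 0.83). Without removing the replicate means, 2 of these 27 places were kept. Relb then had an r of 0.917 with Nfkb2, 0.908 with Rela and 0.425 with Nfkbib. Nfkbia then had an r of -0.952 with Tnip1, -0.249 with Tnfaip3 and 0.167 with Nfkbie.

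The rest of the pathway was described by lists written from general knowledge. Of 39 receptors, adaptors and kinases upstream of NF-κB 38 were tested. With isoproterenol 1 of 38 was called in edgeR, against 3.2% of all genes, Traf1, a signalling adaptor and itself a classical NF-κB target, which rose from 1.39 ± 0.51 to 3.41 ± 0.57 CPM (9 libraries each, ± SD; log2 fold change 1.30, adjusted p = 0.00156). The list's median log2 fold change was 0.04, against -0.002 over all genes. With LNA2 1 of 38 was called, against 1.42% of all genes: Tab2, an adaptor of the kinase Map3k7, fell from 114 ± 14 to 49.7 ± 6.4 CPM (n = 6 each, -1.20, adjusted p = 0.00028), and it was also lower than with LNA1 (-1.21, adjusted p = 0.000312). No gene of this list was called with LNA1 in edgeR and 0 had an adjusted p below 0.05. With the block the adjusted p was below 0.05 for 3 of 38 genes with LNA1 (2 higher, 1 lower), against 7.8% of all genes, for 4 with LNA2 (2 higher, 2 lower), against 20.6%, and for 12 with isoproterenol (11 higher, 1 lower), against 26.4%. For LNA2 against LNA1 6 of 38 passed with the block (2 higher, 4 lower), against 15.4%. The longest uninterrupted stretch of Tab2 transcripts complementary to LNA2 was 7 bases, and 32.9% of all genes had one at least that long. Introns and sites with mismatches were not searched, and a direct effect of LNA2 on Tab2 was not tested.

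Of 36 target genes outside the NF-κB set 26 were tested. With isoproterenol 2 of 26 were called in edgeR, against 3.2% of all genes, the prostaglandin synthase gene Ptgs2 (7.78 ± 2.75 to 17.9 ± 5.8 CPM, log2 fold change 1.22, adjusted p = 0.00295) and the pattern recognition gene Ptx3 (21.5 ± 4.4 to 33.4 ± 5.7 CPM, 0.64, adjusted p = 0.00543). With the block 15 of 26 had an adjusted p below 0.05, against 26.4% of all genes, 11 of them higher and 4 lower, and 9 of 26 were called, 7 higher and 2 lower, against 7%. The higher ones included the cytokine genes Il6 (1.48, adjusted p = 0.000151) and Cxcl5 (1.29, adjusted p = 7.04e-06), and the lower ones included Steap4, a metalloreductase gene (-0.78, adjusted p = 3.33e-07), all in edgeR. With LNA2 1 of 26 was called, against 1.42% of all genes, the stress gene Gadd45b (6.37 ± 0.84 to 10.7 ± 2.0 CPM, 0.75, adjusted p = 0.0147), a call that was lost without the filter on low counts. Without the block, leaving out replicate number 3 or number 4 left 0 genes of the whole table called with either LNA in edgeR. With the block 14 of 26 passed the adjusted p, against 20.6% of all genes, 9 higher and 5 lower, and 4 were called, 3 higher and 1 lower, against 5.53%. With LNA1 none was called in edgeR. With the block 4 of 26 passed the adjusted p, 2 higher and 2 lower, against 7.8% of all genes, and 2 were called, against 2.43%: Lcn2 (0.61, adjusted p = 0.00275) and Saa3 (1.19, adjusted p = 0.000957), both acute-phase genes and both higher. The authors saw Lcn2 and Saa3 change with unrelated guide RNAs in wt1-SAM cells and interpret them as an artefact of this model, which was not tested here. For LNA2 against LNA1 0 of 26 were called in edgeR without the block. With the block 13 of 26 passed the adjusted p, 9 higher and 4 lower, against 15.4% of all genes. Of the 26, 8 were called, 5 higher and 3 lower, against 4.11%. The list's median log2 fold change without the block was 0.16 with isoproterenol, 0.28 with LNA2, 0.02 with LNA1 and 0.19 with LNA2 against LNA1.

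Of 18 other Rel, IκB and feedback genes 16 were tested and in edgeR without the block 0 were called in each of the 4 comparisons, while DESeq2 without the block called 1 of 16 with isoproterenol, lower, against 629 of 14941 genes. On the adjusted p alone the inhibitor gene Nfkbiz (0.41, edgeR adjusted p = 0.0302) and Pdlim2, which encodes a ligase that acts on Rela (0.49, adjusted p = 0.0355), passed with isoproterenol, both higher, 2 of 16 against 4.58% of all genes, and 0 passed without the filter. With the block 6 of 16 passed, 3 higher and 3 lower, against 26.4% of all genes, and 1, the pseudokinase gene Trib3, was called lower, against 7% (-0.53, adjusted p = 6.96e-07). In the blocked fit 3 of 16 passed with LNA1, 2 higher and 1 lower, against 7.8% of all genes. With LNA2 5 passed, 3 higher and 2 lower, against 20.6%. With LNA2 against LNA1 3 passed, 0 higher and 3 lower, against 15.4%. In these 3 comparisons 0 of 16 were called.

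Leukocyte markers moved with some of the same comparisons. Of the 10 markers listed, 3 were tested and 2, Cd14 and Cd68, were called higher with isoproterenol (edgeR log2 fold changes 1.28 and 0.90), against 3.2% of all genes called, and the summed level of the list was 10.8 to 31.3 CPM in unstimulated and 15.3 to 49.6 CPM in stimulated libraries. Most of this sum was Cd68. The defining leukocyte markers Ptprc and Adgre1 had at most 3 and 2 counts in any library. Of 5 preadipocyte markers 4 were tested. With each LNA 1 of the 4 was called, Pdgfra, higher (0.89 with LNA1 and 0.71 with LNA2), and with isoproterenol 1, Ly6a, higher (1.58), against 0.442%, 1.42% and 3.2% of all genes. The list's medians were -0.04, 0.39 and -0.10, and without the filter the LNA2 call was lost. With the block, 3 of the 4 passed the adjusted p with LNA2, against 20.6% of all genes. Of them 2 were called, both higher, against 5.53%. In that fit 4 of 9 tested brown adipocyte markers passed the adjusted p, with 0 called and a median of -0.211. With LNA1 and the block 1 of 4 preadipocyte and 2 of 9 brown adipocyte markers passed, against 7.8%. The part of these markers in the values above was not tested.

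**Figure D5:**
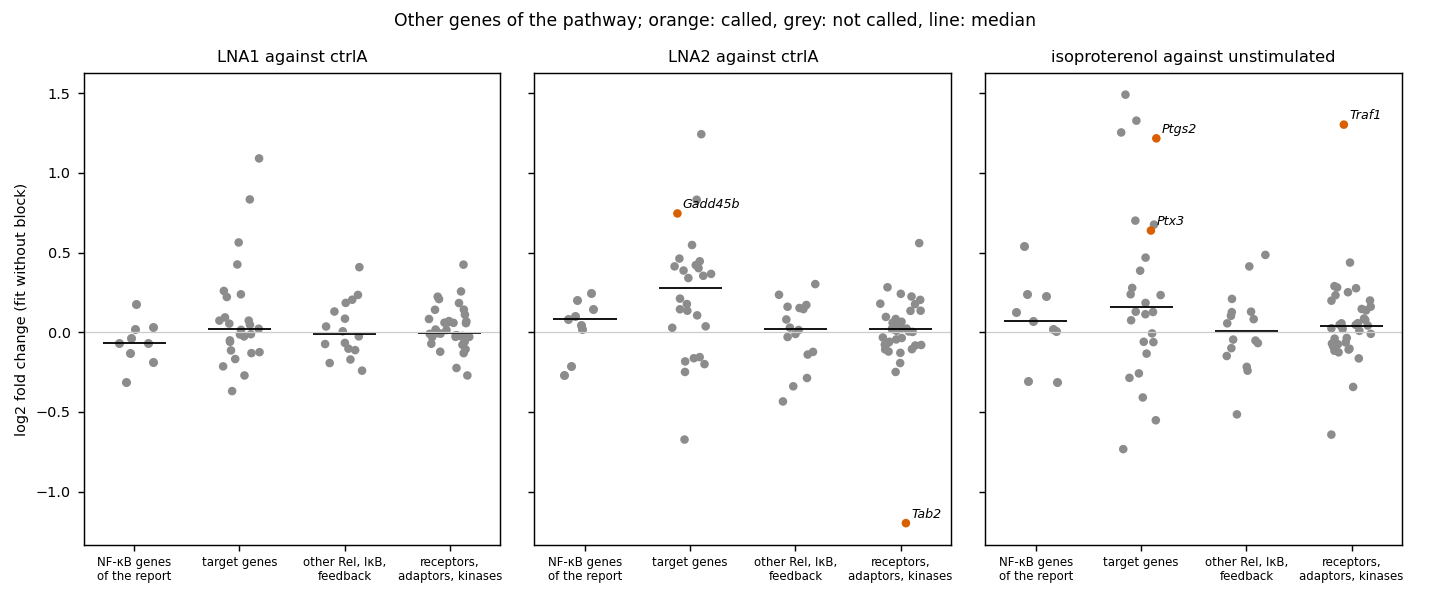
Fitted log2 fold changes (edgeR, without the block) of the 9 measured NF-κB genes and of the 3 pathway lists with LNA1, LNA2 and isoproterenol, with 1 point per gene, a line at each median, and called genes in orange with their names. None of the 9 NF-κB genes is called, while Tab2 and Gadd45b are called with LNA2 and Traf1, Ptgs2 and Ptx3 with isoproterenol.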

How the data were processed

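Polyadenylated RNA was sequenced with the NEBNext Ultra II kit. Reads were trimmed by the authors (cutadapt) and assigned to Gencode M22 transcripts (GRCm38) by salmon. The authors deposited expected counts per gene as whole numbers, without scaling. Versions, strand setting and the summing of transcripts were not given in the sources used here. salmon splits fragments that fit several transcripts, so genes with near-identical copies are uncertain.

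All 18 libraries were fitted in edgeR 4.0.16 (R 4.3.3) by quasi-likelihood with 1 term per group, TMM scaling and filterByExpr (minimum count 10, minimum total 15), which kept 14949 genes. Adjusted p-values are Benjamini-Hochberg over these genes, two-sided. Called means an adjusted p below 0.05 and, for averaged effects, an absolute log2 fold change above 0.5. The joint test used 0.001. The 9 genes were tested in 4 averaged comparisons. Alternatives were RLE size factors, no filter, DESeq2 1.42.0, the replicate number as a block, and leaving out each library or number. Blocked fits without 1 number and DESeq2 with the block were added after seeing the data. Correlations used a prior count of 2.

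Labels do not say whether replicates were separate cultures, so p-values measure the spread between these samples. The numbers 2, 3 and 4 recur in every group: all 45 same-number correlations of deviations from group means exceeded 0.1 (0.240 to 0.722). All 18 libraries had their highest mean correlation with their own number, and the numbers were taken to pair the samples. The lowest same-number value was 0.649 for number 2, 0.252 for number 3 and 0.240 for number 4. Between libraries of number 3 and number 4 the values were 0.0654 to 0.404 and overlapped the same-number ones. The pairing thus rests mostly on number 2, and numbers 3 and 4 were separated little. 0 pairs of libraries within a group were identical. Floors cover counting error only.

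The genes and lists were chosen with earlier results of these data known. Named genes of a list were up to 4 called ones with the largest change at a mean of at least 1 CPM. Nfkbiz, Pdlim2 and Csf1r were named after their values were seen. The fits were tested on simulated data with the same dispersion for all genes and no shift between replicate numbers. That test could therefore not judge the choice between fits with and without the block. Promoters are from RefSeq (GRCm38.p6) and transcripts from GENCODE M21.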

Additional observations from a re-analysis of the deposited data

How the results depend on the processing

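The replicate block and leaving out libraries both changed calls, and the cause of each shift was not tested. Counts out of 9 genes below are from edgeR unless DESeq2 is named, and leaving out means a library or a replicate number. With isoproterenol 1 gene was called with the replicate block, and 0 to 1 when libraries or numbers were left out. On the adjusted p alone, 5 passed with the replicate block, 4 in DESeq2 with the block, 0 without the filter, and 3, 3 and 4 with the block and number 2, 3 or 4 left out. Without the block, leaving out libraries or numbers gave 0 to 3. With LNA2 against ctrlA the block gave 3, DESeq2 with the block 3, and the block without number 2, 3 or 4 gave 1, 3 and 0. With LNA2 against LNA1 these were 2, 3 and, without number 2, 3 or 4, 1 each. The joint test called 4 in DESeq2 with the block, against 2851 of 14949 genes. Tnfaip3 with isoproterenol lost its adjusted p without the filter and without any of these libraries: ctrlA unstimulated 3; ctrlA isoproterenol 3 and 4; LNA1 unstimulated 2 and 3; LNA1 isoproterenol 2 and 4; LNA2 unstimulated 2 and 3; LNA2 isoproterenol 2 and 4. It was 0.487 without number 3 and 0.2397 without number 4. The calls over all genes without the block also moved when single libraries were left out. They ranged from 32 to 82 genes with LNA1 (66 with all libraries) and from 113 to 262 with LNA2 (213). With LNA2 against LNA1 they ranged from 73 to 153 (138).

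None of the log2 fold changes whose sign turned had an adjusted p below 0.05 in either edgeR fit of all libraries, and the cause was not tested. Without the filter Nfkb1 was -0.012 and Nfkbib -0.001 with LNA1. With the block and number 4 left out, Rela was 0.010 and Relb 0.078 with LNA1, Nfkbie -0.115 with LNA2 against LNA1 and Nfkb1 -0.005 with isoproterenol. With number 3 left out, Relb was -0.047 and Nfkbib -0.126 with LNA2, Nfkbib -0.138 with LNA2 against LNA1, and Nfkb1 -0.018, Rela -0.070 and Nfkbib -0.031 with isoproterenol. Leaving out single libraries or numbers without the block gave these ranges. With LNA1 they were -0.089 to 0.123 for Nfkb1, -0.167 to 0.112 for Rela, -0.210 to 0.087 for Relb and -0.266 to 0.119 for Nfkbia. With LNA2 they were -0.034 to 0.247 for Rela, -0.145 to 0.178 for Relb and -0.127 to 0.151 for Nfkbib. With LNA2 against LNA1 they were -0.076 to 0.22 for Relb, -0.276 to 0.051 for Nfkbia, -0.140 to 0.125 for Nfkbib, -0.113 to 0.138 for Nfkbie and -0.035 to 0.208 for Tnip1. With isoproterenol they were -0.065 to 0.084 for Nfkb1, -0.073 to 0.111 for Rela and -0.029 to 0.194 for Nfkbib.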
